A study of Mus musculus with 30 samples.

Results

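A set of 10 genes of heme breakdown and iron handling were followed through a compound screen in mouse fibroblasts: Hmox1, Hmox2, Blvra, Blvrb, Slc48a1, Fth1, Ftl1, Slc40a1, Tfrc and Ireb2. They were chosen by name with earlier results of these data known, so their counts beside those of all genes are descriptions. All 10 were found among the 29861 genes of the expression table and passed the filter on low values that left 13644 genes for testing. RNA was sequenced from CCG-HTA-1, a primary tail fibroblast cell line of UMHet3 mice, which are a genetically mixed stock, at passage 4. Cells grew in pyruvate-free DMEM with high glucose at ambient oxygen and were harvested 48 hours after a compound was added. Each of the 8 compounds had 3 libraries, and the solvent DMSO, the control, had 6.

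Among the compounds, Antimycin A and Dihydrorotenone block mitochondrial respiration, Diphenyleneiodonium Cl inhibits flavoenzymes, and Podofilox prevents tubulin from polymerising. Clofilium tosylate blocks potassium channels and Cardamonin is a chalcone from plants. The remaining 2 were AEG 3482 and an agent labelled BerberineA. The labels give no doses, so equal exposure cannot be assumed in any comparison of compounds. The donor age was 5 to 8 weeks for every library except Dihydrorotenone replicate 1, for which it was 8 to 11 weeks. All libraries came from this 1 cell line, so the p-values measure the spread between cultures or libraries of it, which may be technical. Because library numbers were consecutive within each group, batch of library and compound cannot be told apart. The study's title asks which routes to cellular stress resistance depend on NRF2, the transcription factor that switches on antioxidant genes, and Hmox1, Blvrb, Ftl1 and Fth1 are among its known targets.

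Heme, the iron-holding ring of hemoglobin and cytochromes, is opened by heme oxygenase, which yields biliverdin, carbon monoxide and free iron. Biliverdin is reduced further, and the iron is stored in ferritin, a hollow shell of heavy and light chains, or leaves the cell through ferroportin. Cells match uptake to need with the iron regulatory proteins, which in iron-poor cells bind a hairpin called the iron-responsive element: bound at the start of an mRNA it stops translation, and bound at the end of the transferrin receptor mRNA it protects the message from decay.

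Of the 10 genes, 4 carry such a hairpin in the GENCODE M21 transcripts (GRCm38), and these are shown because the 4 moved in different ways below. A match was a C, any 5 bases, CAGTG, a base other than G, and 5 bases that pair with the 5 before the loop (G with T allowed), read on the transcript strand. The 6 loop bases are in capitals, and each run is 30 bases written 5′ to 3′ in DNA letters.
Fth1, 5′ UTR, chr19:9982732-9982761, plus strand: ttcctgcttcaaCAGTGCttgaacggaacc
Ftl1, 5′ UTR, chr7:45459778-45459807, minus strand: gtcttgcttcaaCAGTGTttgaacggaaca
Slc40a1, 5′ UTR, chr1:45925464-45925493, minus strand: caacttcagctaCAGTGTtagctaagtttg
Tfrc, 3′ UTR, chr16:32631219-32631248, plus strand: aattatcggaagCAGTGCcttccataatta
Tfrc, 3′ UTR, chr16:32631598-32631627, plus strand: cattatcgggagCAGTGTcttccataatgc
Tfrc, 3′ UTR, chr16:32631663-32631692, plus strand: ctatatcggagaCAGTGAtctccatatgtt
Tfrc, 3′ UTR, chr16:32631710-32631739, plus strand: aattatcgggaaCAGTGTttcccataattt
Matches of this form are uncommon: 23 of 21901 protein-coding genes (0.105%) had one in a 5′ UTR and 100 (0.457%) in a 3′ UTR. The heavy and light ferritin chains share the stem next to the loop, and Tfrc holds 4 matches close together. The match says what letters are there, and protein binding was not measured.

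Values are TPM, each transcript's share of the library's transcripts on a fixed total, which are scaled to transcript length and to the library's total, so levels of different genes can be set side by side. Differences are on the log2(TPM + 1) scale, compound minus DMSO, with their standard error (SE), and a gene is said to rise or fall where limma's Benjamini-Hochberg adjusted p over all 13644 genes was below 0.05. The same 6 DMSO libraries serve all 8 comparisons. Sequencing depth cannot be read from TPM. From 12229 to 12700 genes were at or above 1 TPM per library, and all 8 fibroblast markers were detected in each group. Erythroid markers, which would mark red cell precursors rich in heme genes, summed to at most 4.44 TPM in any library, the highest in AEG 3482, and Hbb-bt was at 0 in all.

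Cardamonin changed 9 of the 10 genes, 8 higher and 1 lower, where 70.3% of all tested genes passed the same threshold (37.3% higher, 33.0% lower). AEG 3482 changed 6, 5 higher and 1 lower, against 68.1% of all genes (41.3% higher, 26.8% lower). Podofilox changed 7, 5 higher and 2 lower, against 46.2% (26.2% higher, 2725 of the 13644 tested genes lower). The members' median difference was 0.86 in Cardamonin, 0.26 in AEG 3482 and 0.25 in Podofilox, where all tested genes had medians of 0.03, 0.10 and 0.04. Median-ratio scaling moved the AEG 3482 median of all genes from 0.0965 to 0.00256, so small rises in that compound stand relative to this shift.

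Antimycin A changed 5 of the 10, 4 higher and 1 lower, against 37.3% of all genes (21.8% higher, 15.5% lower). Clofilium tosylate changed 6, 4 higher and 2 lower, against 23.4% (10.9% higher, 12.5% lower), and Diphenyleneiodonium Cl changed 3, all higher, against 25.7% (14.0% higher, 11.7% lower). BerberineA changed 4, 2 higher and 2 lower, against 21.7% (12.6% higher, 9.16% lower). Dihydrorotenone changed 3, 1 higher and 2 lower, against 14.4% (4.95% higher, 9.43% lower). In AEG 3482 and Diphenyleneiodonium Cl the share of the 10 that changed was near the share of all genes. The count in Cardamonin was 7 under median-ratio scaling and without the filter on low values, near the 70.3% of the main fit. In Antimycin A it was 4 under both, against 37.3% in the main fit.

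A second view is whether the 3 treated libraries lay wholly outside the range of the 6 DMSO libraries. This held for 7 of the 10 genes in Cardamonin (61.6% of all genes), 6 in AEG 3482 (58.9%) and 6 in Podofilox (38.5%). It held for 5 with Clofilium tosylate (20.8%), 5 with Antimycin A (4234 of the 13644 tested genes) and 4 with Diphenyleneiodonium Cl (24.5%). With BerberineA it held for 3 (19.1%) and with Dihydrorotenone for 3 (14.9%).

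**Figure D1:**
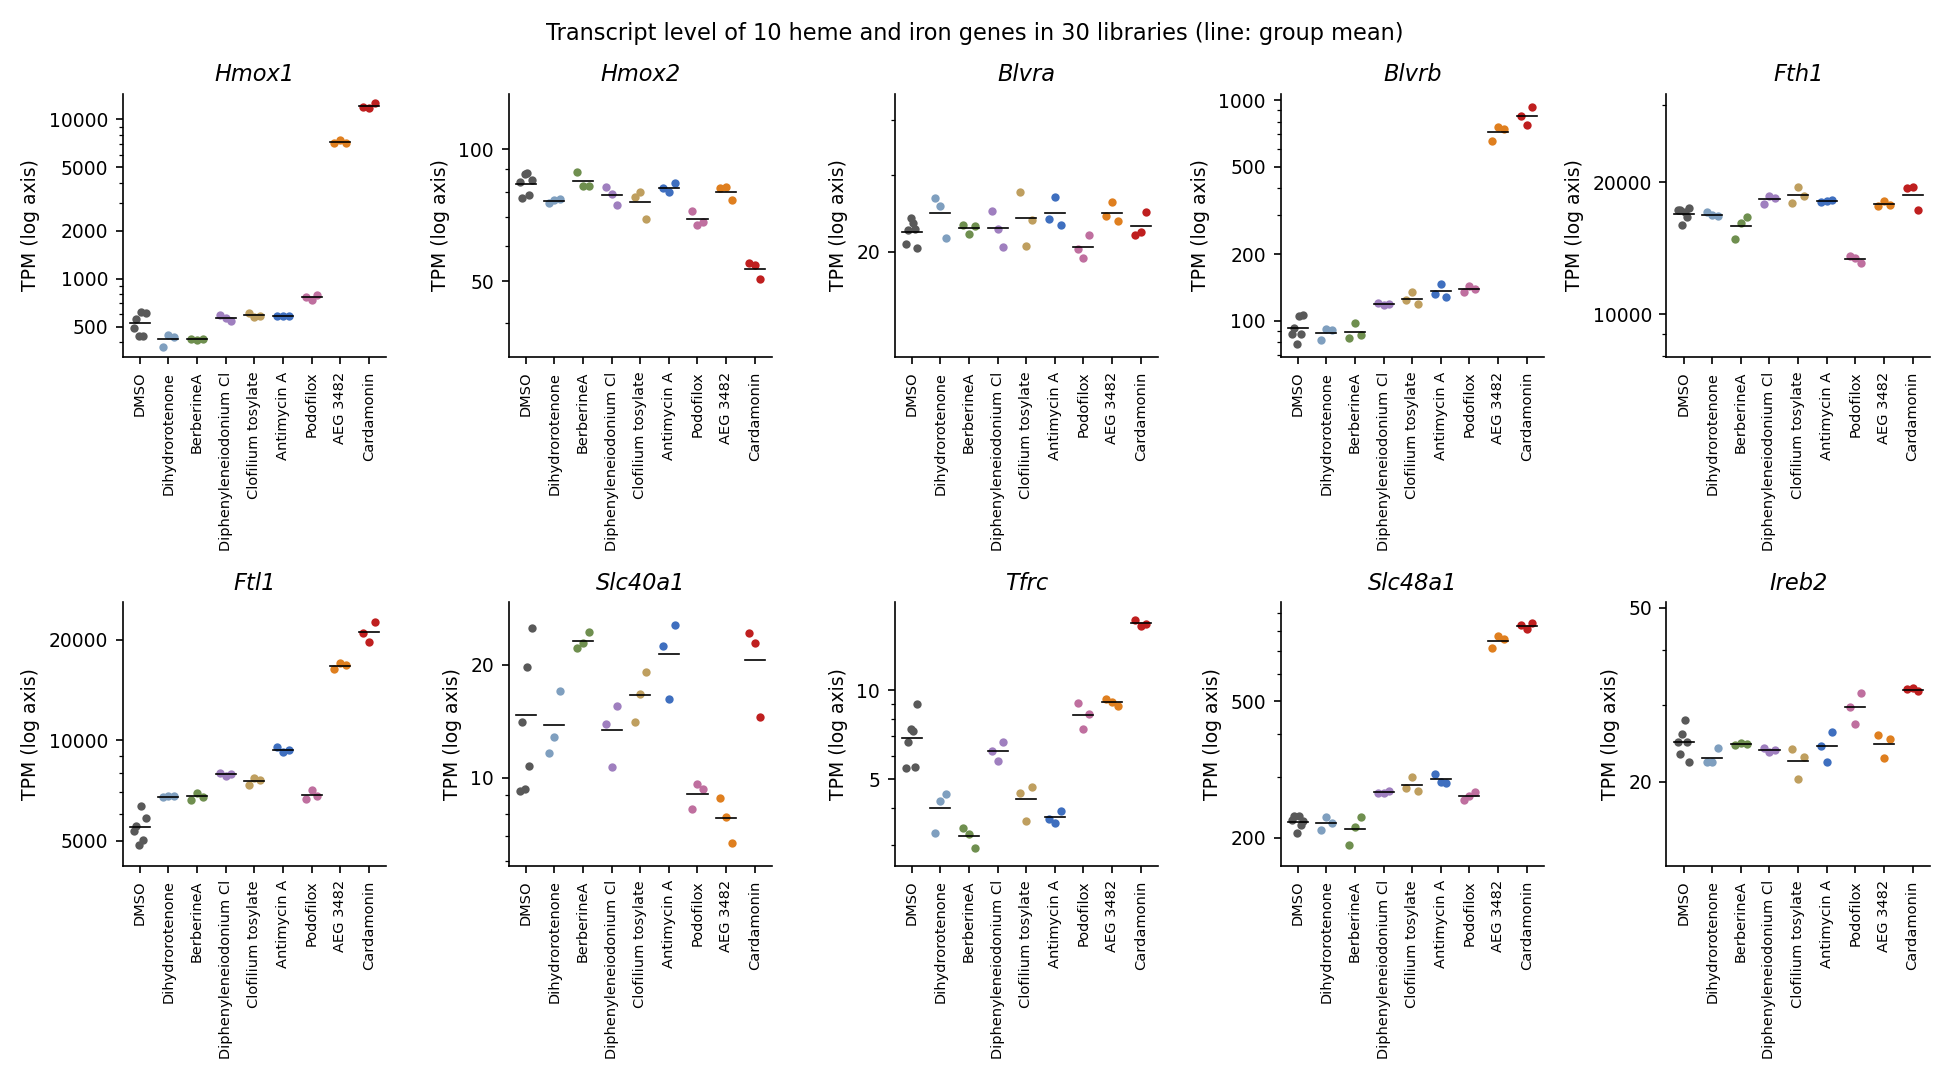
Level of each of the 10 genes in TPM (log axis with its own range in each panel) in each of the 30 libraries, by group, with a line at the group mean. Hmox1, Blvrb, Slc48a1 and Ftl1 were high in the Cardamonin and AEG 3482 libraries, Tfrc was below DMSO in 4 groups, and Blvra stayed between 19.3 and 27.3 TPM.

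Hmox1 (chromosome 8, 75093621 to 75100589, plus strand, GRCm38) encodes the inducible heme oxygenase. DMSO libraries held 434, 524 and 617 TPM (lowest, median, highest). Cardamonin libraries held 11880.5, 11704 and 12634 TPM and AEG 3482 libraries 7124, 7469 and 7154 TPM. Both groups lay far above every other library, and the differences from DMSO were 4.54 (SE 0.08, adjusted p = 9.58e-24) and 3.80 (SE 0.08, adjusted p = 4.01e-22), or 23.2-fold and 14.0-fold. By mean TPM Hmox1 ranked 267th among all genes in DMSO, 8th in AEG 3482 and 6th in Cardamonin, where it made up 1.21% of the library's transcripts.

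Podofilox libraries held 772, 737 and 793 TPM of Hmox1, all above the DMSO range, a rise of 0.56 (SE 0.08, adjusted p = 3.86e-06). Antimycin A (585, 580.2 and 579 TPM), Clofilium tosylate (606, 577 and 584 TPM) and Diphenyleneiodonium Cl (593, 566 and 546 TPM) lay inside the DMSO range. Their differences of 0.17, 0.18 and 0.13 did not pass (adjusted p = 0.124, 0.116 and 0.267), although without DMSO replicate 4 the first 2 did (0.22 and 0.24, adjusted p = 0.0299 and 0.0294), as they did without DMSO replicate 6 (0.21 and 0.23, adjusted p = 0.0393 and 0.0370). Hmox1 fell in BerberineA (418, 410.4 and 417 TPM; -0.32, SE 0.08, adjusted p = 0.00650), with all 3 libraries under the lowest DMSO library. It fell by the same amount in Dihydrorotenone (370.3, 443 and 432 TPM; -0.32, SE 0.08, adjusted p = 0.00993), where replicate 2 lay inside the DMSO range. That second call was lost without Dihydrorotenone replicate 1 (-0.24, adjusted p = 0.109), the library with the other donor age, and both were lost when only the compound and DMSO were fitted (adjusted p = 0.158 for Dihydrorotenone and 0.106 for BerberineA).

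In the order of the 9 group means of Hmox1, 4 of the 8 steps between neighbours were larger than the spread between libraries. Cardamonin exceeded AEG 3482 (0.74, adjusted p = 4.27e-07), AEG 3482 exceeded Podofilox (3.24, adjusted p = 2.65e-19), Podofilox exceeded Clofilium tosylate (0.38, adjusted p = 0.00261), and DMSO exceeded Dihydrorotenone. Of all genes, 60.3% differed between AEG 3482 and Podofilox and 39.1% between Podofilox and Clofilium tosylate. Neighbours among Clofilium tosylate, Antimycin A, Diphenyleneiodonium Cl and DMSO did not differ beyond their spread, nor did Dihydrorotenone and BerberineA.

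Hmox2 (chromosome 16, 4726361 to 4766742, plus strand), the constitutive heme oxygenase, stood well below Hmox1 in every group. DMSO libraries held 77.4, 84.5 and 88.1 TPM (lowest, median, highest), and Cardamonin libraries held 55.0, 54.4 and 50.6 TPM. Hmox2 fell in Cardamonin (-0.64, SE 0.05, adjusted p = 9.65e-12), the opposite direction to Hmox1 in the same libraries. It also fell in Podofilox (72.2, 67.3 and 68.1 TPM; -0.27, adjusted p = 5.92e-05), again where Hmox1 rose. In AEG 3482 (81.4, 81.9 and 76.6 TPM) the difference of -0.06 did not pass (adjusted p = 0.274), but it did after each of 3 other scalings (-0.15 to -0.22). A fall of 0.14 in Clofilium tosylate (adjusted p = 0.0376) was lost in 9 of 19 alternatives, among them without Clofilium tosylate replicate 3 (adjusted p = 0.330) or without DMSO replicate 1, 3, 4 or 6 (0.0555 to 0.0759). Gm15859 overlaps Hmox2 on the same strand and Cdip1 on the other, so some reads may be shared.

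The ratio of the inducible to the constitutive enzyme within a library does not depend on how libraries are scaled. Hmox1 to Hmox2 was 6.28 ± 0.96 (SD, n = 6) in DMSO, 227 ± 19.8 (n = 3) in Cardamonin, 90.7 ± 3.0 (n = 3) in AEG 3482 and 11.1 ± 0.49 (n = 3) in Podofilox. In each of the 3, every library lay above every DMSO library (exact permutation test, two-sided, p = 0.0119, the smallest that 84 regroupings can give; 0.0204 after adjustment over 24 ratio tests, which were chosen after the values were seen).

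The biliverdin reductases also moved apart, but here neither gene fell against DMSO. Blvra (chromosome 2, 127070665 to 127097084, plus strand), which makes bilirubin from the biliverdin that heme oxygenase releases, lay between 20.4 and 23.8 TPM in DMSO and passed in none of the 8 comparisons by limma (0 at an unadjusted p below 0.05 as well, and 0 under every alternative fit). Its largest difference was 0.14 in AEG 3482, with a 95% confidence interval from -0.02 to 0.30. Between compounds, Blvra was lower in Podofilox than in Antimycin A, Dihydrorotenone and AEG 3482, where 41.4%, 45.2% and 60.3% of all genes differed. Blvrb (chromosome 7, 27447978 to 27466144, plus strand), known also as a flavin reductase, held 78.6, 90.0 and 106 TPM in DMSO (lowest, median, highest). Cardamonin libraries held 844, 770.2 and 932 TPM and AEG 3482 libraries 655, 753 and 738 TPM, rises of 3.18 (SE 0.08, adjusted p = 1.53e-21) and 2.94 (SE 0.08, adjusted p = 1.60e-20).

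Blvrb also rose in 4 milder compounds, in each of which all 3 libraries lay above all 6 DMSO libraries. The rises were 0.58 in Podofilox, 0.55 in Antimycin A (132, 147 and 128 TPM), 0.44 in Clofilium tosylate and 0.36 in Diphenyleneiodonium Cl (120, 118 and 119 TPM), with adjusted p from 1.00e-06 to 0.00105. Neighbours in the order of those 4 did not differ beyond their spread. Dihydrorotenone (81.9, 91.7 and 91.0 TPM) and BerberineA (83.1, 97.5 and 86.4 TPM) overlapped DMSO. Blvrb to Blvra was 4.21 ± 0.64 (SD, n = 6) in DMSO, 37.1 ± 2.06 (n = 3) in Cardamonin, 29.2 ± 2.15 (n = 3) in AEG 3482 and 6.81 ± 0.55 (n = 3) in Podofilox, again without overlap (exact permutation test, two-sided, p = 0.0119 each).

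Slc48a1 (chromosome 15, 97778520 to 97792692, plus strand; Hdac7 overlaps it on the other strand) encodes the transporter that moves heme out of the lysosome. DMSO libraries held 207, 225 and 232 TPM (lowest, median, highest), the tightest spread but one of the 10 genes with a coefficient of variation of 4.26%. Cardamonin libraries held 834, 807 and 844 TPM and AEG 3482 libraries 711, 772 and 755 TPM, all above the rest, with rises of 1.89 (SE 0.05, adjusted p = 1.59e-21) and 1.74 (SE 0.05, adjusted p = 1.61e-20). Smaller rises passed in Antimycin A (307, 290.2 and 289.7 TPM; 0.41), Clofilium tosylate (0.35), Diphenyleneiodonium Cl (271, 270.1 and 274 TPM; 0.29) and Podofilox (258, 266 and 273 TPM; 0.25). These are the same 6 compounds in which Blvrb rose. In Dihydrorotenone and BerberineA the differences were -0.01 and -0.08 (adjusted p = 0.899 and 0.282).

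**Figure D2:**
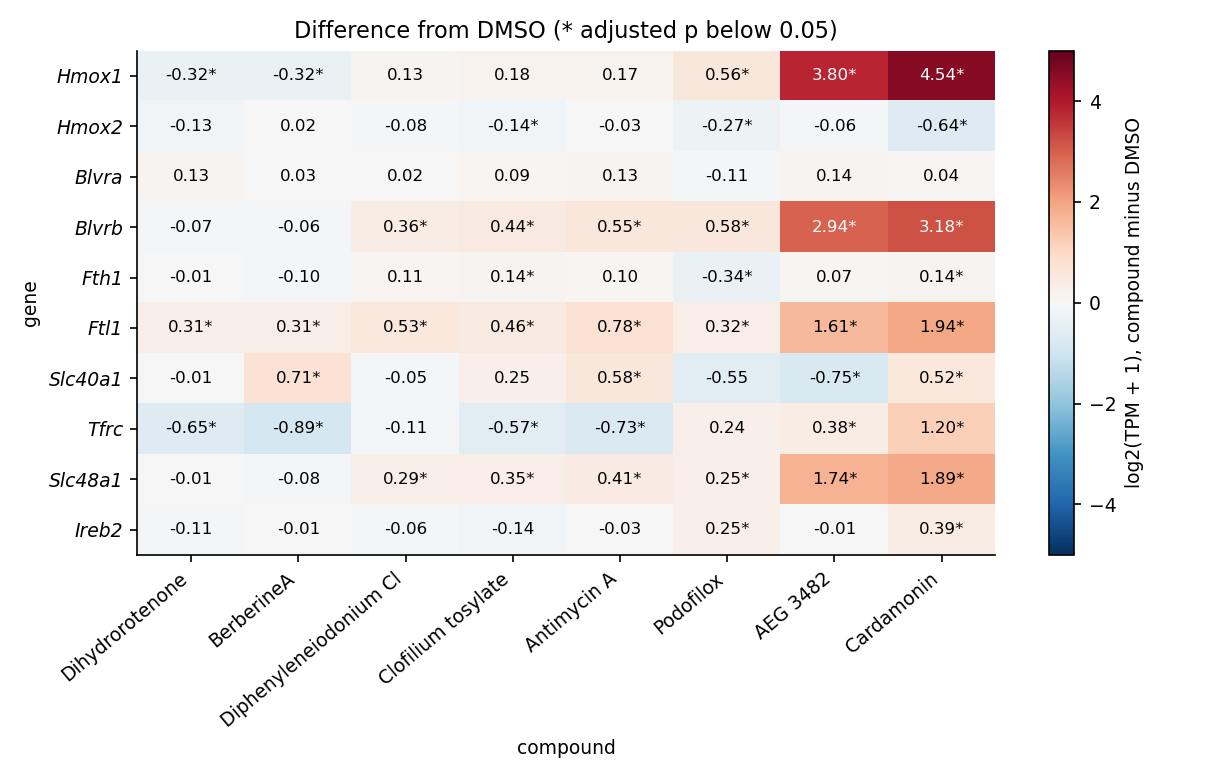
Difference from DMSO on the log2(TPM + 1) scale for the 10 genes (rows) in the 8 compounds (columns), with red for higher, blue for lower and an asterisk where the adjusted p was below 0.05. The largest values are 4.54 for Hmox1 and 3.18 for Blvrb in Cardamonin, Ftl1 has an asterisk in all 8 columns, and Blvra has none.

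Ferritin transcripts were among the most abundant of the cell. Fth1, the heavy chain that oxidises iron for storage (chromosome 19, 9980598 to 9985098, plus strand), ranked 3rd by mean TPM in DMSO, and Ftl1, the light chain that aids mineral formation (chromosome 7, 45457944 to 45459884, minus strand), ranked 11th. Together they made up 2.25% ± 0.10 (SD, n = 6) of the library's transcripts in DMSO, 3.98% ± 0.06 (n = 3) in Cardamonin, 3.45% ± 0.06 (n = 3) in AEG 3482 and 2.02% ± 0.03 (n = 3) in Podofilox.

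Ftl1 rose in all 8 compounds, and in each of them all 3 libraries lay above all 6 DMSO libraries. DMSO held 4854, 5450 and 6352 TPM (lowest, median, highest). Cardamonin held 20895, 19654 and 22546 TPM and AEG 3482 held 16299, 17018 and 16745 TPM, rises of 1.94 (SE 0.06, adjusted p = 5.94e-20) and 1.61 (SE 0.06, adjusted p = 5.24e-18). With these levels Ftl1 became the most abundant transcript of the table in Cardamonin and the 2nd in AEG 3482.

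Antimycin A followed in the order of Ftl1 levels, with 9552, 9257 and 9349 TPM (0.78, SE 0.06, adjusted p = 9.11e-11), and stood above Diphenyleneiodonium Cl with 7960.15, 7839 and 7929 TPM (0.53; difference between the 2 compounds 0.25, adjusted p = 0.0264, where 6.04% of all genes differed). Clofilium tosylate rose by 0.46 and Podofilox by 0.32. The smallest rises were those of Dihydrorotenone (6746, 6799 and 6811 TPM; 0.31, adjusted p = 0.000692) and BerberineA (6618, 6974 and 6786 TPM; 0.31, adjusted p = 0.000276), in which Hmox1 was below DMSO. Of these 8 calls 1 was lost under an alternative: Dihydrorotenone fitted with DMSO alone gave an adjusted p of 0.0542. Ftl1 shares 57.7% of its 31-base words with other genes, mostly pseudogenes, so its level is uncertain in principle. Ftl1-ps1, the copy with most signal, held at most 0.348% of the Ftl1 level in any group, and adding the copies changed no Ftl1 call.

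Fth1 moved little by comparison. DMSO held 15985, 17195 and 17495 TPM (lowest, median, highest), Cardamonin 19432, 19473 and 17253 TPM, and AEG 3482 17656, 18129.5 and 17734 TPM. The rise in Cardamonin was 0.14 (SE 0.04, adjusted p = 0.00551), with 1 library inside the DMSO range, and in AEG 3482 the difference of 0.07 did not pass (adjusted p = 0.136), nor did those of Antimycin A and Diphenyleneiodonium Cl (0.10 and 0.11). In AEG 3482, Antimycin A and Diphenyleneiodonium Cl every library still lay above every DMSO library. Clofilium tosylate rose by 0.14 like Cardamonin (adjusted p = 0.0201), with every library above DMSO. Without Cardamonin replicate 1 or 2 the Cardamonin call was lost (adjusted p = 0.0512 and 0.0504). Without Clofilium tosylate replicate 2 or 3 the other was lost (0.147 and 0.0557). Both calls were also lost under median-ratio scaling (adjusted p = 0.0643 and 0.0516) and with the compound and DMSO fitted alone (0.0756 and 0.113). They were lost without the filter on low values too. Rescaling without the 20 most abundant genes removed the Cardamonin call (adjusted p = 0.0665), and quantile normalization removed the Clofilium tosylate call (0.0965).

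Podofilox was the exception for Fth1: its libraries held 13596, 13456 and 13048 TPM, all below DMSO, a fall of 0.34 (SE 0.04, adjusted p = 3.50e-07). The next lowest group, BerberineA, held 14817, 16126 and 16616 TPM and differed from Podofilox (0.24, adjusted p = 0.000264; 42.6% of all genes) but not from DMSO (-0.10, adjusted p = 0.111). Rescaling without the 20 most abundant genes gave -0.13 in BerberineA, past the threshold (adjusted p = 0.0411). Quantile normalization gave 0 for Fth1 in Podofilox and 0.32 in BerberineA (adjusted p = 0.0129), a turn in direction. It also gave rises that passed in AEG 3482 (0.68, adjusted p = 4.97e-07), Antimycin A (0.44, adjusted p = 0.000449) and Diphenyleneiodonium Cl (0.44, adjusted p = 0.000728). That method sets each gene by its rank, and Fth1 ranked 3rd in both Podofilox and DMSO, 2nd in BerberineA, Antimycin A and Diphenyleneiodonium Cl and 1st in AEG 3482.

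The balance of the chains shifted in every compound. Fth1 to Ftl1 was 3.10 ± 0.23 (SD, n = 6) in DMSO, with no library below 2.70. It was 2.49 ± 0.04 in Dihydrorotenone, 2.47 ± 0.05 in Clofilium tosylate, 2.33 ± 0.11 in BerberineA and 2.31 ± 0.06 in Diphenyleneiodonium Cl (SD, n = 3 each). Podofilox and Antimycin A came to 1.95 ± 0.08 and 1.93 ± 0.04, by different routes: Fth1 fell and Ftl1 rose in the first, while Ftl1 alone passed in the second. AEG 3482 libraries lay between 1.06 and 1.08, and the Cardamonin libraries between 0.765 and 0.991, the one group with more light chain than heavy chain transcript in each library. All 8 compounds lay wholly below DMSO (exact permutation test, two-sided, p = 0.0119 each, 0.0204 adjusted over the 24 ratio tests).

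**Figure D3:**
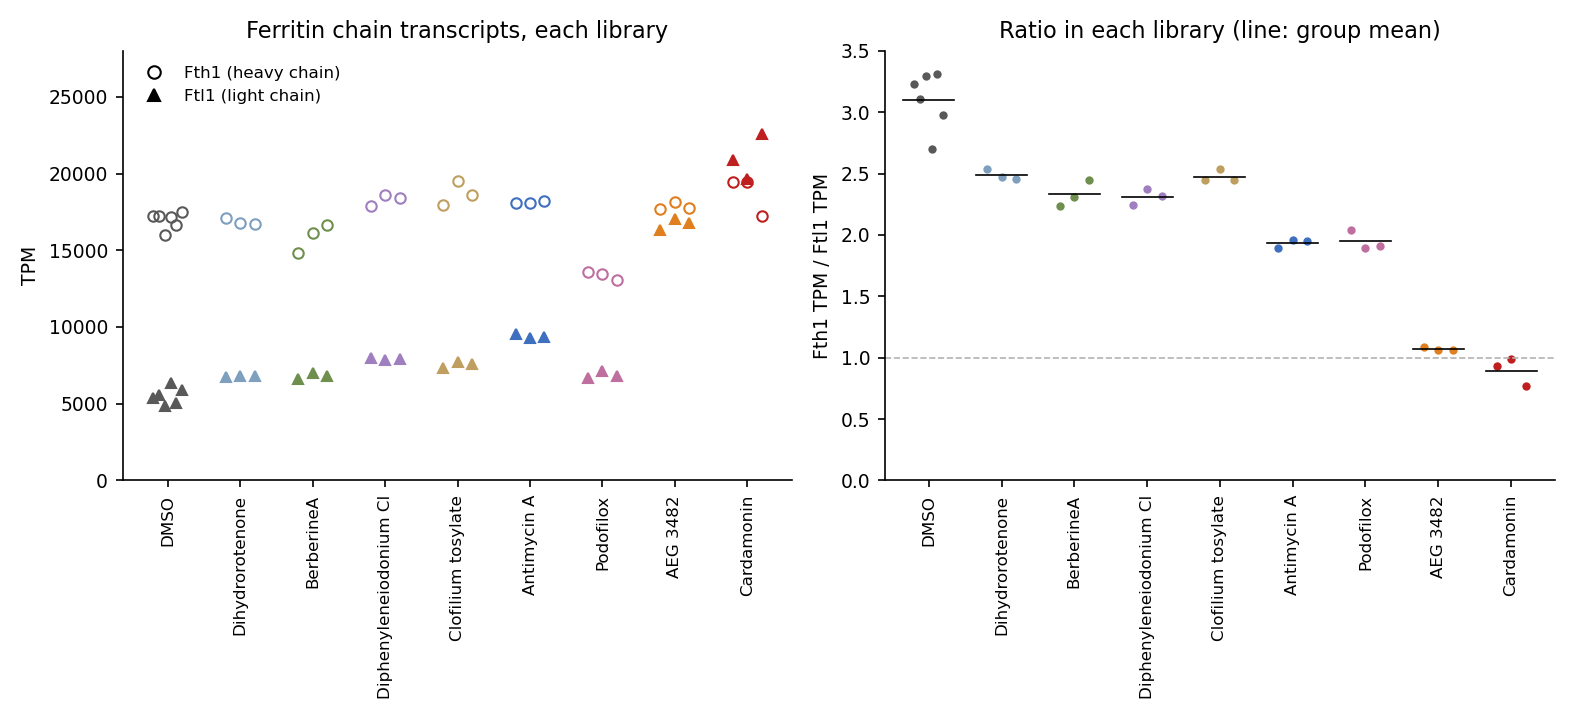
Left, TPM of Fth1 (open circles) and Ftl1 (triangles) in each library by group. Right, the ratio of Fth1 to Ftl1 in each library with a line at the group mean and a dashed line at a ratio of 1. The DMSO libraries sit highest (mean 3.10) and the Cardamonin libraries lowest (mean 0.895).

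Tfrc, the transferrin receptor that brings iron into the cell (chromosome 16, 32608920 to 32632794, plus strand), was a rare transcript, at 5.45, 6.97 and 8.96 TPM in DMSO (lowest, median, highest). It rose in Cardamonin (17.3, 16.5 and 16.8 TPM; 1.20, SE 0.11, adjusted p = 1.74e-10), well above every other library. In AEG 3482 (9.31, 9.14 and 8.87 TPM) it rose by 0.38 (SE 0.11, adjusted p = 0.00285), with 1 library inside the DMSO range. The direct difference between the 2 compounds was 0.82 (SE 0.12, adjusted p = 2.82e-06).

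Tfrc fell in 4 compounds, with no overlap with DMSO in any. BerberineA libraries held 3.41, 3.27 and 2.93 TPM (-0.89, adjusted p = 8.49e-07), Antimycin A 3.67, 3.56 and 3.89 TPM (-0.73, adjusted p = 4.93e-06) and Dihydrorotenone 3.30, 4.21 and 4.45 TPM (-0.65, adjusted p = 0.000174). Clofilium tosylate held 4.48, 3.60 and 4.72 TPM (-0.57, adjusted p = 0.000243). These 4 groups did not differ between neighbours in the order, and Diphenyleneiodonium Cl (6.23, 5.76 and 6.70 TPM) lay above Clofilium tosylate (0.46, adjusted p = 0.0332; 3.15% of all genes) and overlapped DMSO. Podofilox (9.04, 7.39 and 8.29 TPM; 0.24, adjusted p = 0.0620) passed without DMSO replicate 6 (0.32, adjusted p = 0.00808) or without its own replicate 2 (0.31, adjusted p = 0.0413). At these levels the added 1 TPM shrinks the differences.

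Slc40a1 encodes ferroportin, the known route of iron out of the cell (chromosome 1, 45908068 to 45926523, minus strand). It varied most among the DMSO libraries, with a coefficient of variation of 43.6% and values of 9.25, 14.1, 9.36, 19.8, 10.8 and 25.0 TPM for replicates 1 to 6. Replicates 4 and 6 were also the 2 highest DMSO libraries for Hmox1, Blvrb and Ftl1. The summed macrophage markers, which matter because macrophages are rich in ferroportin, were 192 and 252 TPM in those 2 libraries, the lowest and the highest of the DMSO group. Over all groups the 8 macrophage markers summed to 102 to 252 TPM, with 5 of them (Cd14, Lyz2, Cd68, Adgre1, Csf1r) reaching 1 TPM and Ptprc, the pan-leukocyte marker, at most 0.88 TPM. Their part in the Slc40a1 differences was not tested.

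Slc40a1 fell in AEG 3482 (8.85, 7.86 and 6.72 TPM; -0.75, SE 0.23, adjusted p = 0.00548), all below DMSO. BerberineA (22.2, 22.9 and 24.5 TPM; 0.71, adjusted p = 0.0251), Antimycin A (22.5, 16.2 and 25.6 TPM; 0.58, adjusted p = 0.0468) and Cardamonin (24.3, 22.9 and 14.6 TPM; 0.52, adjusted p = 0.0452) rose but overlapped DMSO. Those 3 rises were lost in 7, 12 and 12 of 19 alternatives, each of them without DMSO replicate 1, 3 or 5 and the last 2 without DMSO replicate 2 as well. Leaving out a treated library had the same effect for any BerberineA replicate, for Antimycin A replicate 1 or 3 and for Cardamonin replicate 1 or 2, with adjusted p of up to 0.211. Podofilox (8.25, 9.66 and 9.35 TPM; -0.55) missed the threshold (adjusted p = 0.0517) and passed without DMSO replicate 1, 3 or 5 (0.0205 to 0.0363). No step between neighbours in the order of the 9 group means passed. Groups further apart in it did differ: Cardamonin exceeded AEG 3482, the lowest, by 1.27 (SE 0.26, adjusted p = 0.000210).

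Ireb2, the iron regulatory protein whose stability follows iron and oxygen (chromosome 9, 54863789 to 54912530, plus strand), held 22.2, 24.7 and 27.7 TPM in DMSO (lowest, median, highest). It rose in Cardamonin (32.6, 32.7 and 32.2 TPM; 0.39, SE 0.06, adjusted p = 4.62e-06), above every DMSO library, and in Podofilox (29.7, 27.2 and 32.0 TPM; 0.25, SE 0.06, adjusted p = 0.00149), where 1 library overlapped. The other 6 compounds did not pass, with differences from -0.14 to -0.01. Clofilium tosylate, at -0.14 (adjusted p = 0.104), passed without DMSO replicate 6 (-0.17, adjusted p = 0.0420).

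Cardamonin and AEG 3482, which held the highest Hmox1 levels, were compared directly in the same fit. Of the 10 genes 8 differed between them, where 55.3% of all genes did. Cardamonin was higher for Hmox1 (0.74), Ftl1 (0.33), Blvrb (0.24, adjusted p = 0.0252), Slc48a1 (0.15, adjusted p = 0.0206), Tfrc (0.82), Slc40a1 (1.27) and Ireb2 (0.40, adjusted p = 3.66e-05), and lower for Hmox2 (-0.58, adjusted p = 2.95e-09). Blvra and Fth1 did not pass, with 95% confidence intervals of -0.28 to 0.09 and -0.04 to 0.17. For Hmox1, Blvrb, Slc48a1 and Ftl1 the gap between the compounds was smaller than the AEG 3482 change itself. For Tfrc it was larger (0.82 against 0.38), and for Slc40a1 the 2 changes had opposite signs. Fibroblast markers summed to 3743 to 4740 TPM in Cardamonin libraries, 10673 to 12035 TPM in AEG 3482 libraries and 9471 to 10929 TPM in DMSO libraries, and their part in the differences was not tested. Fewer cells of a kind and less RNA per cell cannot be told apart in these bulk samples.

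**Figure D4:**
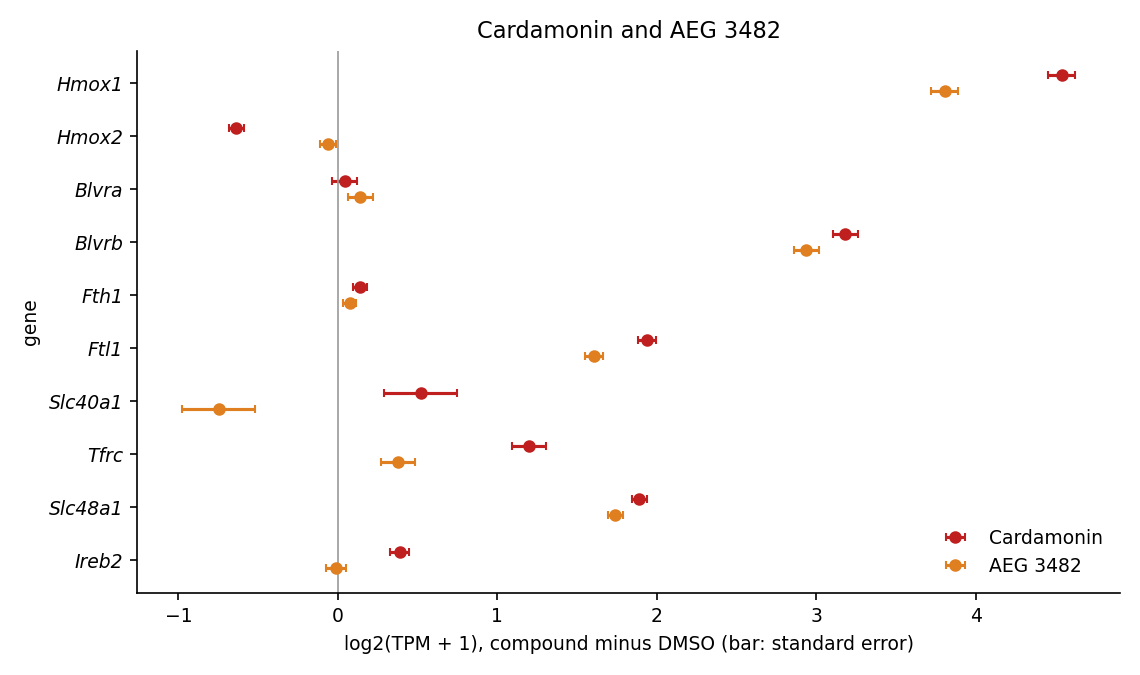
Difference from DMSO on the log2(TPM + 1) scale for the 10 genes in Cardamonin (red) and AEG 3482 (orange), with bars for the standard error. The 2 compounds lie close together for Blvrb (3.18 and 2.94) and Slc48a1 (1.89 and 1.74) and apart for Tfrc (1.20 and 0.38) and Slc40a1 (0.52 and -0.75).

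Among the 6 other compounds, Antimycin A and Dihydrorotenone, which both block mitochondrial respiration, were not alike. Antimycin A, which acts at complex III, exceeded Dihydrorotenone, which acts at complex I, for Hmox1 (0.49, adjusted p = 0.000822), Blvrb (0.62, adjusted p = 2.96e-05), Ftl1 (0.47, adjusted p = 1.89e-05) and Slc48a1 (0.42, adjusted p = 4.94e-06), so 4 of 10 genes differed where 15.5% of all genes did. Tfrc, low in both, did not pass (-0.08, 95% confidence interval -0.33 to 0.18). Dihydrorotenone and BerberineA differed in 0 of the 10 by limma (1.51% of all genes), with 2 genes, Hmox2 and Slc40a1, at an unadjusted p below 0.05. For Hmox1 their difference was 0.00 with an interval from -0.20 to 0.19.

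Diphenyleneiodonium Cl and BerberineA gave few differences over all genes, 0.623%, yet 4 of the 10 were among them: Slc48a1 (0.36, adjusted p = 0.00164), Tfrc (0.78, adjusted p = 0.00191), Hmox1 (0.45, adjusted p = 0.0221) and Blvrb (0.42, adjusted p = 0.0255). All 4 were higher in Diphenyleneiodonium Cl. Clofilium tosylate against Dihydrorotenone gave 3 of the 10 (Hmox1, Blvrb and Slc48a1) where 2.46% of all genes passed, and Antimycin A against Clofilium tosylate gave Ftl1 alone (5.21%). The doses behind these compounds are unknown, and the genes were proposed with earlier results of these data in view, so the counts are descriptions.

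Across the 9 group means of log2(TPM + 1), Hmox1 followed Blvrb (Pearson r = 0.994), Slc48a1 (0.987) and Ftl1 (0.949) closely and Fth1 weakly (0.31). The points share the DMSO libraries as 1 of 9 groups, and Cardamonin and AEG 3482 stand far from the other 7, so a high r says mainly that a gene was high in those 2. Of 10498 genes compared, 664 reached an r of 0.95 with Hmox1. The 5 most like it were Abcc1, an exporter of glutathione conjugates (r = 0.998; 29.9 TPM in DMSO, 252 in Cardamonin, 199 in AEG 3482), Mapk9, Gstp2, Ccl25 and Stk10. Gstp2 has close paralogs and its level is uncertain. Tfrc had 7 genes at that r, led by Gm20388 (0.967), Sfxn5, Slc33a1, Ecm1 and Fam208b. For Blvrb the list was led by Sall1 and Slc48a1 (0.997 each), then Hmga1b, Rhot1 and Hmga1, of which Hmga1 and Hmga1b are near copies of each other. Slc48a1 was closest to Blvrb, Ppp1r11, Rhot1, Pir and Pqlc2, and Ftl1 to Pqlc2, Abhd4, Ppp1r11, Zfand3 and Gdf15.

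The core of the antioxidant response element, TGACNNNGC, to which NRF2 binds with small MAF proteins, was looked for on both strands of the RefSeq promoter windows (GRCm38.p6, 250 bases before to 50 after each start). Windows were given for 7 of the 10 genes, not for Hmox1, Slc40a1 or Slc48a1. One match was found, in the window of Blvra, the gene that passed in no comparison with DMSO, and it is shown because it was the only one. The run is written on the plus strand with the match in capitals, and the motif itself reads on the minus strand.
Blvra, match within chr2:127070407-127070706: cacgggaattGCTCGGTCAaggctccgcct
Of 32851 such windows 4071 (12.4%) hold the motif. The missing match in Blvrb, Ftl1, Fth1, Hmox2, Tfrc and Ireb2 says only that the letters are not in these short windows.

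The wider pathways were described by lists of genes, whose counts stand beside the shares of all genes that were higher or lower given above. Of 18 other NRF2 targets all 18 rose in both Cardamonin (median 2.91, against 0.03 over all tested genes) and AEG 3482 (median 2.47, against 0.10). They included Gsta4, a glutathione transferase (4.60 and 3.61), Slc7a11, which imports cystine (4.45 in Cardamonin), and Srxn1, sulfiredoxin (3.92 in AEG 3482). In Podofilox 13 rose and 2 fell, in Antimycin A 13 rose (10 or 11 under other scalings), and in Diphenyleneiodonium Cl and in Clofilium tosylate 9 rose. In Dihydrorotenone 0 rose and 7 fell (2 rose under median-ratio scaling), and in BerberineA 1 rose and 6 fell, Slc7a11 by 0.52 and 0.45. Those 2 compounds are the ones with low Hmox1. The list's earlier results in these data were known, so it is no independent support.

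Heme synthesis did not move as a block. Of its 8 tested genes 4 rose and 2 fell in Cardamonin, and 3 rose and 2 fell in AEG 3482. Cpox, coproporphyrinogen oxidase, fell in both (-0.44 and -0.61) and rose in Podofilox (0.43). Alad, which joins 2 aminolevulinic acid molecules, rose in Cardamonin (0.37), Antimycin A (0.33) and Clofilium tosylate (0.31). It rose less in Diphenyleneiodonium Cl (0.28), BerberineA (0.20) and Podofilox (0.19), and the last 2 calls were lost without some of the treated libraries. Urod, uroporphyrinogen decarboxylase, rose by 0.50 in AEG 3482. The list's median in Cardamonin was 0.09 and turned to -0.01 under quantile normalization, and in AEG 3482 it was 0.05 and turned to between -0.11 and -0.04 under 3 scalings.

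Heme and porphyrin transport had 12 tested genes, of which 7 rose in Cardamonin and 7 in AEG 3482, while 2 and 3 fell. Flvcr1, known as a plasma membrane heme exporter, rose in Cardamonin (1.85), AEG 3482 (1.14) and Podofilox (0.67). Pgrmc1, a heme-binding membrane protein, rose by 1.93 and 1.04 in the first 2 and by 0.37 in Antimycin A. Abcg2, a porphyrin exporter, fell by 0.77 in AEG 3482 and by 0.57 in Podofilox.

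Iron uptake and export gave the largest falls. Of 15 tested genes 8 fell and 6 rose in Cardamonin, and 10 fell and 4 rose in AEG 3482. Steap4, a metalloreductase, went from 740 TPM in DMSO (SD 109, n = 6) to 92.8 in Cardamonin (-3.02) and 41.8 in AEG 3482 (-4.13), and it fell in the other 6 compounds, by 0.47 to 1.40 on the log2 scale. Lcn2, the siderophore-binding lipocalin, went from 2416 to 161 TPM in AEG 3482 (-3.89). The 2 ferroxidases that work with ferroportin went opposite ways in Cardamonin: Cp, ceruloplasmin, fell from 85.5 to 7.17 TPM (-3.45), while Heph, hephaestin, rose from 9.97 to 77.8 TPM (2.85). Heph rose in AEG 3482 as well (2.11). Steap3, the endosomal reductase that follows transferrin uptake, rose in Antimycin A (0.54), Diphenyleneiodonium Cl (0.49), Clofilium tosylate (0.34), Podofilox (0.33), Dihydrorotenone (0.28) and BerberineA (0.21). It fell in Cardamonin (-0.27) and AEG 3482 (-0.64), the compounds in which Tfrc rose. In Podofilox Slc39a8, a zinc and iron importer, rose by 1.39.

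Iron-sulfur cluster assembly, a use of iron, had 19 tested genes, of which 12 rose and 3 fell in Cardamonin and 10 rose and 3 fell in AEG 3482. The scaffold gene Iscu was among those that fell (-0.83 and -0.47), and it fell in Podofilox too (-0.37), while Hspa9, the chaperone that works with it, rose in Cardamonin (1.29), Podofilox (0.78), Antimycin A (0.60), Clofilium tosylate (0.52) and BerberineA (0.17). In Antimycin A 7 rose and 1 fell, led by Fdxr (0.70) and Hscb (0.63), and both also rose in BerberineA (0.38 and 0.44). In AEG 3482 the count of falls went from 3 to between 5 and 7 under 3 other scalings.

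Of 8 tested genes for iron storage chaperones and sensing, 5 rose and 2 fell in Cardamonin, and 4 rose and 1 fell in AEG 3482, a split that became 2 and 3 under quantile normalization. Bmp6, the signal that raises hepcidin in the liver, rose in Cardamonin from 1.29 to 6.81 TPM (1.78) and in AEG 3482 by 1.12. Aco1, the other iron regulatory protein, fell in Cardamonin (-0.25), the direction opposite to Ireb2, and rose in AEG 3482 (0.23), a rise that was lost under quantile normalization (0.08, adjusted p = 0.105).

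The list of 10 heme-responsive regulators also holds partners and relatives of NRF2, so its counts do not measure heme sensing alone. Of these 10 genes 8 rose in Cardamonin, in AEG 3482 and in Podofilox, with 1, 1 and 0 falls, and in AEG 3482 the rises were 5 or 6 under other scalings. Mafg and Mafk, the small MAF partners of NRF2 and of its competitor BACH1, rose in Cardamonin (1.27 and 1.19) and AEG 3482 (1.43 and 0.84). Bach1, the heme-sensing repressor of Hmox1, rose in Podofilox and in Cardamonin (0.63 each). Nfe2l1, a relative of NRF2, rose in 7 of the 8 compounds, by 0.85 in Cardamonin and 0.60 in Antimycin A. Dividing cells need iron, and the members of a proliferation list of 8 tested genes did not move together in the compounds in which Tfrc rose. In Cardamonin 2 rose and 4 fell (3 and 3 under quantile normalization), with Pcna at 1.11, Mcm2 at 0.48 and Cdk1 at -1.64. In AEG 3482 3 rose and 2 fell (2 and 3 under median-ratio scaling), with Mcm2 at 0.82, Mcm6 at 0.47 and Cdk1 at -1.95. Where Tfrc fell, 5 of the 8 rose in Antimycin A (4 under quantile normalization), 3 in BerberineA, 3 in Clofilium tosylate and 0 in Dihydrorotenone, with no fall in these 4. The part of cell division in the Tfrc levels was not tested.

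**Figure D5:**
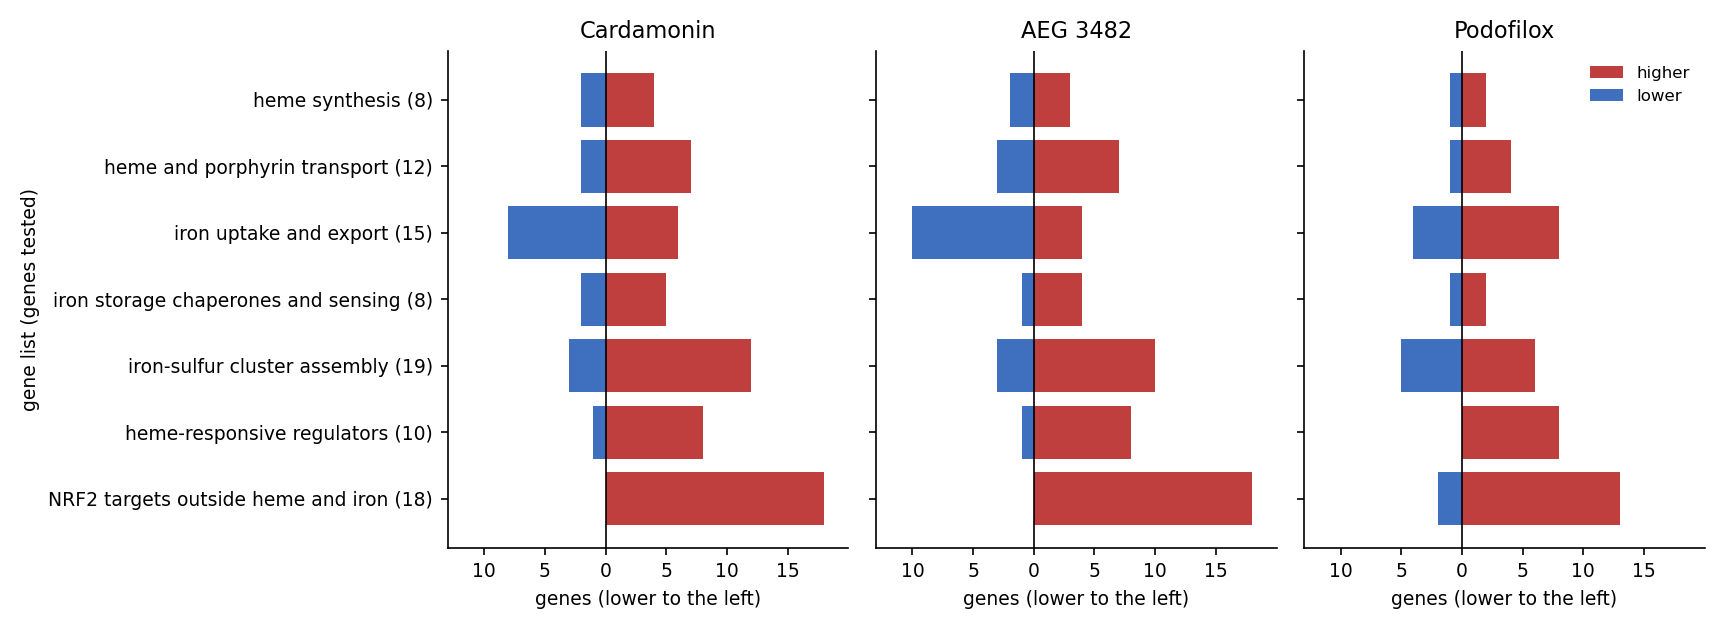
Number of genes of each pathway list that were higher (red, right) or lower (blue, left) than DMSO at an adjusted p below 0.05, in Cardamonin, AEG 3482 and Podofilox, with the number tested in brackets. All 18 other NRF2 targets were higher in the first 2 compounds, and iron uptake and export had more genes lower than higher in them. Under quantile normalization storage and sensing also did in AEG 3482, with 2 higher and 3 lower.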

How the data were processed

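RNA sequencing libraries of 30 cultures were analysed as deposited. The authors quantified transcripts with kallisto 0.43.1 and summed them per gene with tximport, naming the build mm10 and FastQC, per the labels, the series text and the submitters' processing notes. The deposited values are TPM made by the authors, and the library totals of the genes given ranged from 927024 to 937134 TPM. Depth is not recoverable from TPM, so precision rests on the spread between libraries, and no counting interval or detection floor is given.

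Gene identifiers were matched to GENCODE M21 (GRCm38), and 29505 of 29861 had a symbol. A gene entered the fit where 3 or more libraries reached 1 TPM. Its log2(TPM + 1) values in all 30 libraries were modelled by limma 3.58.1 (R 4.3.3), with a mean for each group, an intensity trend, and Benjamini-Hochberg adjustment over genes within each contrast, at 0.05. The 28 direct contrasts came from the same fit. This scale understates changes of low genes. The fit was tested on simulated data. Group labels follow the agent of each sample. All 6 libraries labelled DMSO were used, although the design text counts 5.

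The 10 genes and the lists were chosen with earlier results of these data known. Named list genes are, per list and compound, up to 2 rises and 2 falls past the threshold, reaching a mean of 5 TPM in compound or DMSO, without overlap between their libraries; Bmp6, Steap3, Steap4, Hspa9, Bach1 and Nfe2l1 values in further compounds were added after they were seen. Tf and Hjv had no row. Alas2, Tfr2, Hephl1, Cybrd1, Ftmt, Hamp, Mki67, Mcm5, Bub1 and Plk1 did not pass the filter. Alternatives covered the pseudocount, the filter, the scaling, the libraries fitted, the trend, a replicate block, each replicate left out, and ferritin copies summed.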

Additional observations from a re-analysis of the deposited data

How the results depend on the processing

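Over 80 pairs of gene and compound, 43 passed the threshold, and 32 of them kept their call and direction in every alternative, while 11 lost the call in at least 1. Of the 37 that did not pass, 14 passed in at least 1 alternative. The direction of a passing value turned once: Fth1 in BerberineA was 0.317 under quantile normalization, against -0.10, because Fth1 ranked one place higher there. Fitting each compound with DMSO alone lowered the count in BerberineA from 4 to 2 and in Dihydrorotenone from 3 to 1, with fewer libraries to estimate the spread. It also lowered the count in Cardamonin from 9 to 7, in Clofilium tosylate from 6 to 4 and in Antimycin A from 5 to 4. The Cardamonin count was 7 as well without the filter, under median-ratio scaling and rescaled without the 20 most abundant genes. A pair of alternatives was chosen after seeing the data: Ftl1 summed with genes sharing at least 50% of its 31-base words, and protein-coding genes alone. Of 143 named list values 122 kept their call in every alternative and 21 lost it in at least 1.

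Replicate numbers did not pair the libraries: deviations of same-numbered libraries had a mean correlation of 0.0073 over 108 pairs, with 4 above 0.1. With the replicate block the counts were 9 for Cardamonin, 8 for Podofilox, 7 for Clofilium tosylate, 6 for Antimycin A, 5 for AEG 3482, 4 for BerberineA and Diphenyleneiodonium Cl, and 3 for Dihydrorotenone. Only DMSO had replicates 4, 5 and 6, so in this fit the contrasts rested on DMSO replicates 1 to 3. Its changes in calls cannot be told apart from leaving out those other DMSO libraries. With the block Hmox1 passed in Antimycin A (0.24, adjusted p = 0.00998), Clofilium tosylate (0.26, adjusted p = 0.0103) and Diphenyleneiodonium Cl (0.21, adjusted p = 0.0354). Slc40a1 did not pass in AEG 3482 (-0.42, adjusted p = 0.0770). Depth is unknown, so what it limits could not be judged.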
